A study of Mus musculus with 16 samples.

Results

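The genes described here are 39 genes of nephron progenitors, the branching ureteric bud and the first structures they form, read in the kidneys of mouse pups with and without Aqp11, an aquaporin of the endoplasmic reticulum. They were chosen by gene symbol from knowledge of kidney development, out of 18194 genes that the array names. Earlier results of these data were known when these 39 genes were chosen. A probe set that names no other gene was found for 37 of them, and 27 were bright enough to test. Pax2 has no listed probe set and the probe set of H19 also names Mir675, so neither is described. Kidney RNA came from 16 pups aged 7 days, 7 wild type (Aqp11+/+, 3 males and 4 females) and 9 knockout (Aqp11-/-, 5 males and 4 females), each on its own whole-genome Affymetrix array.

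Both groups were offspring of Aqp11+/- matings from 5 breeding pairs, and the labels do not give the pair or litter of each animal. The allele was made in 129/SvEvBrd and crossed back to C57/BL6 for 10 or 11 generations, and the labels give the strain of both groups as C57BL/6J. The deletion was inherited and not limited to a cell type, whole kidneys were used, and no other agent or time point was applied. A difference in whole-kidney RNA cannot tell fewer cells of a type from less RNA per cell. Nor does whole-kidney RNA show which cells gave the signal of a gene. Arrays are named by the labels' numbers, in which 2-3 is the third animal under the first number 2.

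In the developing kidney, GDNF from the metanephric mesenchyme acts on RET and GFRA1 at the ureteric bud and drives its branching. WNT9B from the bud and WNT4 from the mesenchyme then turn SIX2-positive, CITED1-positive cap cells into renal vesicles, where Notch signalling and LHX1 pattern the early nephron, while BMP7 and FGF signals keep the cap cells alive. In mice this progenitor pool is used up in the first days after birth, and several of the genes are also expressed in mature cells, among them Itga8 in the mesangium, Pax8 in tubules and Irx1 and Irx2 in the loop of Henle.

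Of the 5 members whose signal differed between genotypes, 4 have a promoter entry in RefSeq GRCm38.p6, shown here so that the sequence before each start site can be read beside the values. Each is the 250 bases before the annotated start, 5′ to 3′ on the gene's strand, and capitals mark a match to GGCGCC, a GC-rich letter run bound by BMP-activated SMADs. Wnt4 lies at chr4:137277385-137277634 on the + strand, Jag1 at chr2:137116521-137116770 on the - strand, Itga8 at chr2:12301945-12302194 on the - strand and Bmp4 at chr14:46390670-46390919 on the - strand.
Wnt4: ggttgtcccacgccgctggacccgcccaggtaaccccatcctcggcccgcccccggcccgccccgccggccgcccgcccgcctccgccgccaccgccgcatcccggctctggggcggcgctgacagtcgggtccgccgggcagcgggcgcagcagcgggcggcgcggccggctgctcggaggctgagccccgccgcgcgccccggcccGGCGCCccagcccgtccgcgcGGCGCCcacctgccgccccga
Jag1: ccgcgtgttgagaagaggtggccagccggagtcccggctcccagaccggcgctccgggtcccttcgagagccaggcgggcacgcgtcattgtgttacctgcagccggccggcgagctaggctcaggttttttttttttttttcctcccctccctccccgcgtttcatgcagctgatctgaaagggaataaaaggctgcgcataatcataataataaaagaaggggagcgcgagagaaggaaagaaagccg
Itga8: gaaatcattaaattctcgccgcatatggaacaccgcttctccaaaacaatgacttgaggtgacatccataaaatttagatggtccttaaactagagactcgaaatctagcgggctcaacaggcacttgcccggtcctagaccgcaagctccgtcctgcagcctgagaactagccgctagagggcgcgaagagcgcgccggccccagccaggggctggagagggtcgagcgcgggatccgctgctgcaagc
Bmp4: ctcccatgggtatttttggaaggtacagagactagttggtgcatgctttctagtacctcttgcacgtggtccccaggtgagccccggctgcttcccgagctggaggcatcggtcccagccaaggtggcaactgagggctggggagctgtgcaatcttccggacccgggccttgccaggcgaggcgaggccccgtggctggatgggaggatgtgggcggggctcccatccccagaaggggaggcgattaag

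The Wnt4 sequence is 85.2% G or C, against a median of 52.4% over all 32851 promoters in the table, and it holds GGCGCC from positions 209 and 230. Those of Jag1, Itga8 and Bmp4 are 57.2%, 56.4% and 63.2% G or C and hold none of the 4 letter runs searched. Both strands were searched. TGGGAA, the core bound by RBPJ, the DNA-binding partner of Notch, occurs in 21.6% of all promoters and in 7 of the 42 promoters listed for 26 members, since a gene can have several starts. CTTTGAT, bound by TCF/LEF factors of the Wnt pathway, occurs in 3.21% of all promoters and in none of the 42. Its variant CTTTGAA, which differs in the last letter, occurs in 4.46% and in none of the 42. GGCGCC occurs in 9.59% of all promoters and in 11 of the 42, some of which are starts of the same gene. This run is all G and C, and the promoters compared were not matched for G and C content. Whether the shares differ was not tested. None of these letter runs contains another. The remaining 13 members were not matched.

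Aqp11 checked the labels. The log2 signal of its brightest probe set ran between 7.72 and 8.11 in wild type and between 2.78 and 3.69 in knockout, in which 7 of 9 arrays lay at the floor of 2.78 set on low signals (p = 8.74e-05 in a two-sided exact permutation test, its smallest value for groups of this size). Before normalization the arrays differed up to 2.12-fold in trimmed mean signal, with wild types at 165 ± 33.4 (SD, n = 7) and knockouts at 169 ± 44.9 (SD, n = 9). The number of arrays limits the precision of every value below.

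The question is whether loss of Aqp11 left these developmental genes altered at 7 days. Wnt4 rose in the knockout, and Itga8, Bmp7, Jag1 and Bmp4 fell, each by 1.13- to 1.36-fold. These are 5 of 27 members tested, or 18.5%, beside 17.7% of all 12500 genes tested, at an adjusted p of 0.05 in limma. Members rose in 1 case, beside 9.37% of all genes, and fell in 4 cases, beside 8.35%. The share of changed members was near that of all genes. The log2 difference was positive for 11 members and negative for 16, with a median of -0.05, where the median of all genes was 0. An unadjusted p under 0.05 was found for 8 members, beside 28.8% of all genes. The genotypes overlapped in each of the 27 members, and did not overlap in 5.34% of all genes.

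**Figure D1:**
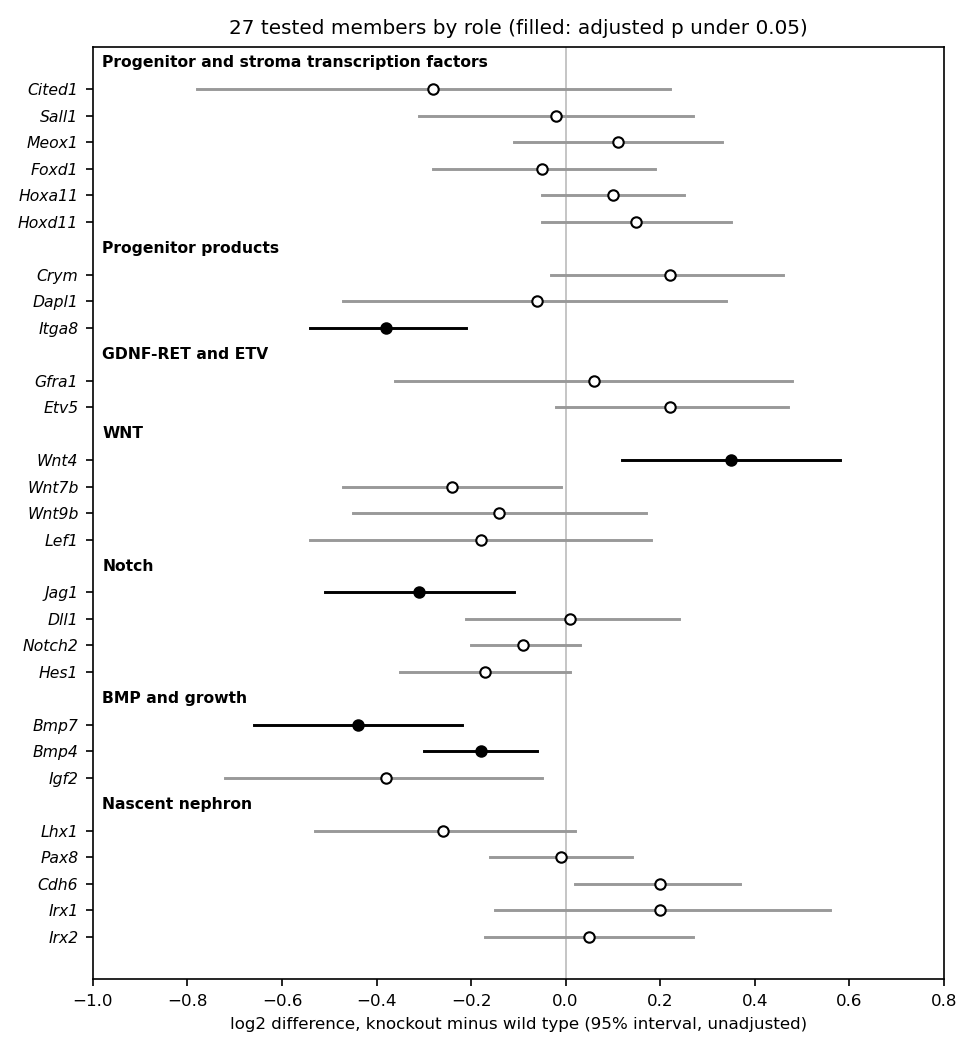
Knockout minus wild-type difference in log2 signal (x axis) for each of the 27 members tested, with the 95% interval of the limma fit; filled black points are the 5 members with an adjusted p under 0.05. The differences run from -0.44 for Bmp7 to 0.35 for Wnt4, and most intervals span 0.

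Among the genes of signals that turn cap cells into epithelium during development, Wnt4 rose. WNT4 is made by the cells being induced and is needed for them to form a renal vesicle. Its log2 signal had a low of 7.21, a median of 7.64 and a high of 7.87 in wild type, and 7.51, 8.02 and 8.27 in knockout. The groups overlapped, with 6 of 9 knockout arrays above the highest wild-type array, 5-1, and knockouts 1-2, 3-2 and 3-3 inside the wild-type range. The mean went from 7.58 ± 0.21 (SD, n = 7) to 7.94 ± 0.25 (SD, n = 9), a difference of 0.35 ± 0.11 (SE) or 1.28-fold (limma adjusted p = 0.0326). Wnt9b, the bud signal that acts upstream of Wnt4, had a difference of -0.14 (95% interval -0.45 to 0.17, adjusted p = 0.606). Wnt7b, made by the ureteric trunk and needed for the medulla, had one of -0.24 (adjusted p = 0.15), and Lef1, a transcription factor of the same pathway, one of -0.18 (adjusted p = 0.547). A second Wnt4 probe set gave 0.17 (adjusted p = 0.436 in a fit of every probe set alone). The Wnt4 call was lost on leaving out any 1 of 8 arrays (wild type 1-1, 2-2 or 3-1, knockout 2-3, 3-4, 4-3, 4-4 or 5-2), with adjusted p up to 0.0862.

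Both bone morphogenetic protein genes in the set fell. Bmp7, whose product keeps cap cells alive and proliferating, had a low of 7.59, a median of 7.82 and a high of 7.94 in wild type, and 6.94, 7.32 and 7.71 in knockout. All 9 knockout arrays were below the wild-type mean and 7 were below the lowest wild-type array, 4-2, with the 2 highest, 3-4 and 5-2, inside the wild-type range. Its mean went from 7.79 ± 0.11 (SD, n = 7) to 7.35 ± 0.27 (SD, n = 9), a difference of -0.44 ± 0.10 (SE), 1.36-fold lower (limma adjusted p = 0.00492). The other probe sets of Bmp7 gave -0.54 (adjusted p = 0.00976) and -0.32 (adjusted p = 0.14). The Bmp7 call held with each of the 16 arrays left out in turn, with adjusted p from 0.00186 to 0.0124.

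Bmp4 is made by stromal cells around the ureteric stalk and restrains ectopic budding. Its signal had a low of 8.38, a median of 8.43 and a high of 8.67 in wild type, and 8.23, 8.28 and 8.42 in knockout. The groups overlapped through a single knockout, in that 8 of 9 knockouts lay below every wild type, and knockout 5-2 lay above wild type 4-1. The mean went from 8.46 ± 0.10 (SD, n = 7) to 8.29 ± 0.06 (SD, n = 9), a difference of -0.18 ± 0.06 (SE), 1.13-fold lower (limma adjusted p = 0.0352). Its adjusted p rose to as much as 0.0927 on leaving out any 1 of 7 arrays (wild type 1-1 or 2-2, knockout 1-2, 2-3, 3-3, 4-3 or 4-4), and to 0.149 when arrays were centred on their median in place of quantile normalization.

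Itga8 encodes the integrin alpha chain on mesenchymal cells that binds nephronectin on the ureteric bud and is needed for Gdnf expression in the mesenchyme. Its signal had a low of 10.24, a median of 10.55 and a high of 10.73 in wild type, and 9.9, 10.2 and 10.32 in knockout. All 9 knockout arrays were below the wild-type mean and 6 below wild type 2-1, the lowest of its group. Its mean went from 10.51 ± 0.18 (SD, n = 7) to 10.14 ± 0.16 (SD, n = 9), a difference of -0.38 ± 0.08 (SE), 1.3-fold lower (limma adjusted p = 0.00195). A second Itga8 probe set fell by more on the log2 scale, with a difference of -0.51 (adjusted p = 0.00169). The call held with each of the 16 arrays left out in turn, with adjusted p from 0.00063 to 0.00638. Npnt, which encodes nephronectin and is named here after its values were seen, had a difference of -0.33 (adjusted p = 0.0706). It is also in the list of podocyte markers described below, so its value is not particular to the bud.

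In the Notch pathway, which patterns the proximal part of the early nephron, the ligand gene Jag1 fell. Its signal had a low of 9.43, a median of 9.91 and a high of 10.21 in wild type, and 9.28, 9.61 and 9.87 in knockout. All 9 knockouts were below the wild-type mean, but only 2 were below wild type 5-1, the lowest of its group. The mean went from 9.89 ± 0.26 (SD, n = 7) to 9.57 ± 0.17 (SD, n = 9), a difference of -0.31 ± 0.10 (SE), 1.24-fold lower (limma adjusted p = 0.0284). The further Jag1 probe sets gave -0.39 (adjusted p = 0.0871) and -0.08 (adjusted p = 0.722). The call was lost without wild type 1-1, 2-2, 3-1 or 4-1 or knockout 3-4 or 5-2, with adjusted p up to 0.0733. The receptor gene Notch2 (-0.09, adjusted p = 0.34), the other ligand gene Dll1 (0.01, adjusted p = 0.958) and the target gene Hes1 (-0.17, adjusted p = 0.202) did not pass the test.

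**Figure D2:**
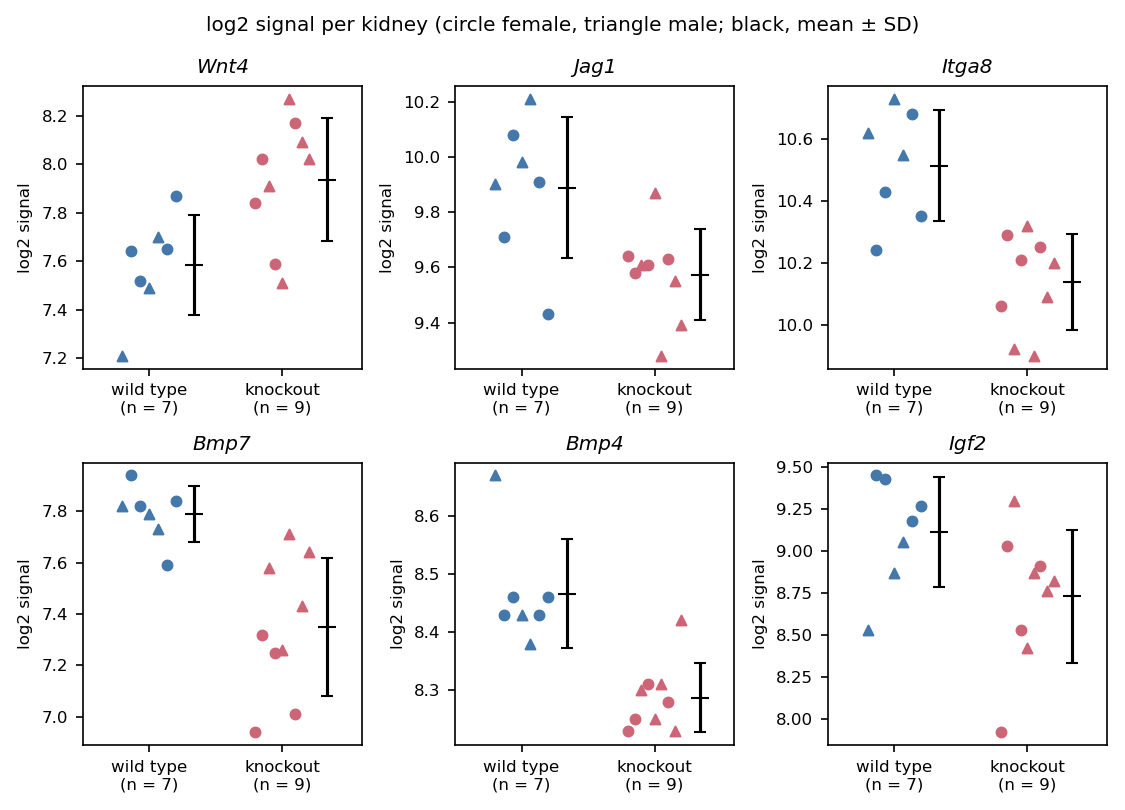
Log2 signal (y axis) of Wnt4, Jag1, Itga8, Bmp7, Bmp4 and Igf2 on each of the 7 wild-type and 9 knockout arrays, 1 point per kidney (circles female, triangles male), with bars for the group mean and SD. The 9 knockout points lie below the wild-type mean for Jag1, Itga8, Bmp7 and Bmp4, and 8 of 9 lie above it for Wnt4; the groups overlap in every panel.

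When the deposited intensities were used with no scaling between arrays, none of these 5 members passed. Their adjusted p was then 0.398 for Wnt4, 0.852 for Jag1, 0.576 for Itga8, 0.353 for Bmp7 and 1 for Bmp4, with the direction of each kept. Over all genes that setting called 438 genes in place of 2215, and 64.8% of its calls were higher in knockout, against 52.9% in the normalized data.

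The signal of marker genes of several cell types differed between genotypes, and these values stand beside all 5 members. The marker lists were chosen with earlier results of these data known. All 20 macrophage markers tested rose, with a median log2 difference of 1.44, and the mean signal of the list ran between 6.82 and 7.5 in wild type and between 8.36 and 8.92 in knockout. Of 20 proximal tubule markers 18 fell and none rose (median -0.72, list mean 10.6 to 10.91 in wild type and 9.31 to 10.1 in knockout). Of 19 genes of injured tubule 17 rose (median 0.88, 7.77 to 8.2 against 9.21 to 9.58). Havcr1, Krt20 and Sox9 of that list lay at the floor in 6 wild-type values in all.

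The other marker lists had smaller median differences. Of 12 podocyte markers 7 fell (median -0.32, list mean 9.67 to 9.81 in wild type and 9.42 to 9.53 in knockout). Of 15 endothelial markers 5 fell (median -0.18, 8.93 to 9.2 against 8.71 to 8.91), and of 14 fibroblast markers 10 rose (median 0.26, 10.43 to 10.66 against 10.77 to 10.92). Of 17 collecting duct markers 1 rose and 5 fell (median -0.12, 8.71 to 9.14 against 8.51 to 8.92). None of the 21 cell cycle genes passed in limma (median 0.15, 8.07 to 8.47 against 7.73 to 8.68). The part of these shifts in the members' differences was not tested.

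Within the 9 knockouts, the 5 changed members were set against the list means of macrophage, proximal tubule and injured tubule markers, 15 relations in all. None passed after Benjamini-Hochberg adjustment. The relation with the smallest exact permutation p was that of Bmp4 with the proximal tubule list (n = 9, Spearman's rho = 0.80, p = 0.0138, adjusted 0.207; Pearson's r = 0.55, p = 0.13, adjusted 0.918). Without arrays 2-3 and 1-2, the farthest from the median of that list, r was 0.46. Without these arrays, r with the injured tubule list went from 0.24 to 0.6 for Wnt4 and from -0.19 to -0.63 for Jag1. It went from -0.35 to -0.8 for Itga8, from -0.24 to 0.58 for Bmp7 and from -0.53 to -0.26 for Bmp4. These correlations thus depend on single arrays, and the values without them were not tested.

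Among the cap mesenchyme members bright enough to test, Sall1, Cited1, Meox1, Crym, Dapl1, Hoxa11 and Hoxd11 did not pass the test. Sall1, a zinc finger factor of the progenitor pool, was at 8.14 ± 0.36 (SD, n = 7) and 8.12 ± 0.27 (SD, n = 9), and the 95% interval of the difference was -0.31 to 0.27. Cited1, which marks the least committed cap cells, was dim, at 5.24 ± 0.23 (SD, n = 7) and 4.96 ± 0.63 (SD, n = 9), and the 95% interval of its difference was -0.78 to 0.22. Meox1, a homeobox gene of the cap, had a difference of 0.11 (adjusted p = 0.553). Crym, an early cap marker, had one of 0.22 (adjusted p = 0.234), and Dapl1, another cap marker, one of -0.06 (adjusted p = 0.875). Hoxa11 and Hoxd11, homeobox genes that the metanephric mesenchyme needs jointly, had differences of 0.10 (adjusted p = 0.382) and 0.15 (adjusted p = 0.322).

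Of the members expressed in the early nephron, Lhx1, Pax8, Cdh6, Irx1 and Irx2 did not pass the test. Lhx1, needed for the renal vesicle to be patterned, was at 6.51 ± 0.24 (SD, n = 7) and 6.25 ± 0.28 (SD, n = 9; difference -0.26, adjusted p = 0.208). Pax8, which acts in the mesenchyme-to-epithelium step and stays on in tubules, was at 8.60 ± 0.11 (SD, n = 7) and 8.60 ± 0.15 (SD, n = 9), with an interval of the difference of -0.16 to 0.14. Cdh6, a cadherin of the early proximal segment, was above the wild-type mean in all 9 knockouts, with a difference of 0.20 that did not pass (adjusted p = 0.128). Irx1 and Irx2, which mark the intermediate segment, had differences of 0.20 (adjusted p = 0.485) and 0.05 (adjusted p = 0.824). Without scaling between arrays, the signs for Sall1 and Pax8 turned.

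Of the bud's own genes, Gfra1, the co-receptor that binds GDNF, was at 5.86 ± 0.47 (SD, n = 7) and 5.92 ± 0.41 (SD, n = 9; adjusted p = 0.885). Etv5, a transcription factor gene switched on by RET signalling, had a difference of 0.22 (95% interval -0.02 to 0.47, adjusted p = 0.215). Foxd1, the defining gene of the cortical stroma progenitors, was at 6.92 ± 0.25 (SD, n = 7) and 6.88 ± 0.19 (SD, n = 9; adjusted p = 0.843).

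Several genes that define the progenitor niche were too dim over the arrays of both genotypes together to be tested, as were RET and its ligand. A gene was tested if it lay above the 40th percentile of its array, a log2 signal of 4.56, on at least 7 of 16 arrays. Six2, Osr1, Eya1, Gdnf, Etv4, Ret, Hes5, Fgf8, Uncx and Hoxb7 passed that level on 0 to 6 arrays, whereas each member tested passed it on at least 15. Fgf8, a survival signal of the renal vesicle, lay at the floor on all 16 arrays and Hoxb7, a ureteric bud gene, on 11 of 16.

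Six2, the defining gene of self-renewing nephron progenitors, had signals of 2.78 to 4.55 in wild types and 2.86 to 4.59 in knockouts, so the ranges nearly coincided. Ret had 2.78 to 4.6 in wild types and 2.78 to 4.29 in knockouts. Gdnf had 2.78 to 4.43 and 2.78 to 4.75. The groups overlapped widely for each of these 3 genes. Osr1, an early marker of the mesenchyme that is also on in some stromal cells, was the dim member whose groups lay farthest apart. It ran from 3.33 to 5.11 in wild type, with no array at the floor, and from 2.78 to 3.75 in knockout, with 5 of 9 arrays at the floor and 7 of 9 below the lowest wild type, 4-2. A probe set that is dim in both groups says only that its signal was near background here.

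**Figure D3:**
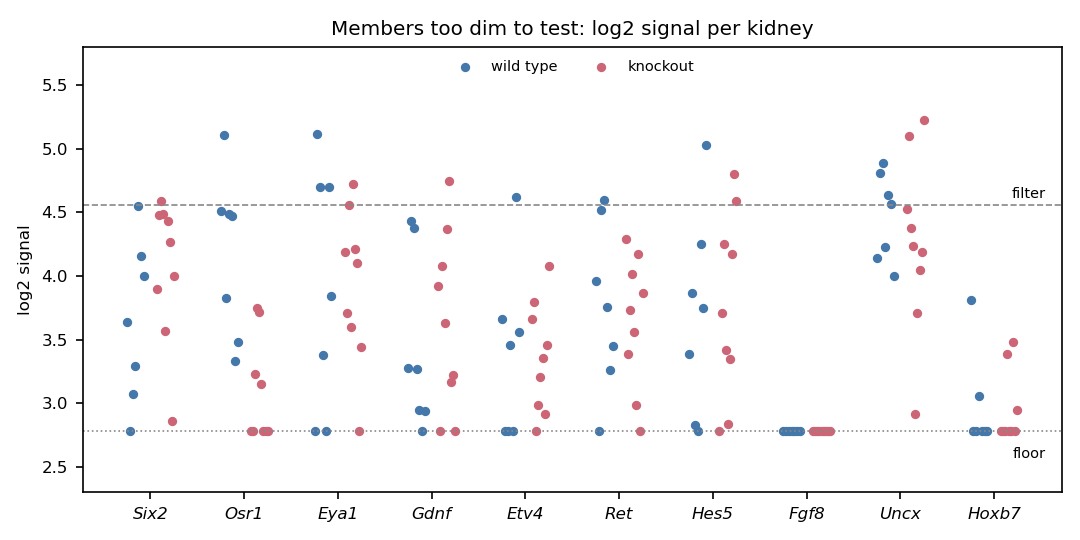
Log2 signal (y axis) of the 10 members too dim to test, 1 point per kidney, 7 wild type and 9 knockout. The dotted line is the floor at 2.78 and the dashed line the level of 4.56 used as a filter; most points lie between them, and those of Osr1 are lower in knockout.

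Igf2, the imprinted fetal growth factor made by kidney mesenchyme, did not pass the test with genotype as the only term. It had a low of 8.53, a median of 9.18 and a high of 9.45 in wild type, and 7.92, 8.82 and 9.3 in knockout. The mean went from 9.11 ± 0.33 (SD, n = 7) to 8.73 ± 0.40 (SD, n = 9), a difference of -0.38 ± 0.16 (SE, limma adjusted p = 0.115). Wild type 1-1 (8.53) and knockout 1-2 (7.92) were each the lowest of their genotype, and wild types 2-1 and 2-2 (9.45 and 9.43) and knockout 2-4 (9.3) the highest. Without wild type 1-1 the difference was -0.48 (adjusted p = 0.0441). The labels do not say what the first number stands for.

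**Figure D4:**
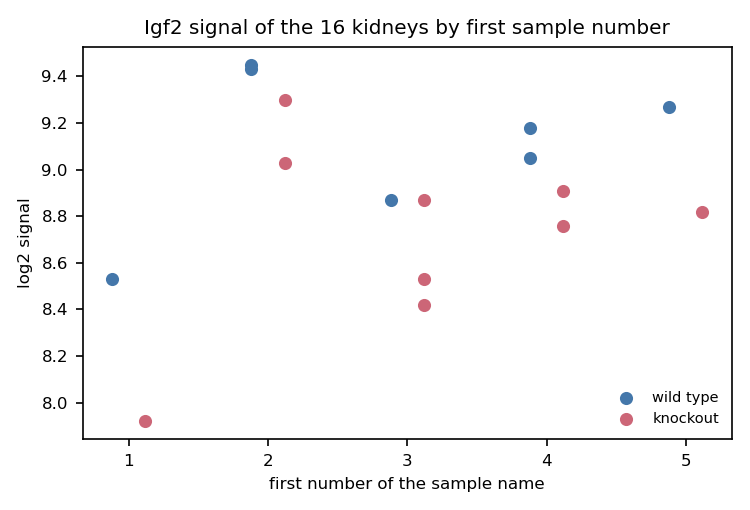
Log2 signal of Igf2 (y axis) on each array by the first number of its label (x axis, 1 to 5), 1 point per kidney, 7 wild type and 9 knockout. The mean of the knockouts is below that of the wild types under each of the 5 numbers, and number 1 is lowest in both genotypes.

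The difference between genotypes was also compared between the sexes. No gene passed the test of sex by genotype in limma (0% of 12500 genes; 10.8% had an unadjusted p under 0.05), and no member passed, with 4 members at an unadjusted p under 0.05. Igf2 had a difference of 0.02 in males and -0.74 in females (adjusted p = 0.455). For Igf2 the lowest wild type, 1-1, and the highest knockout, 2-4, were male. The highest wild type, 2-1, and the lowest knockout, 1-2, were female. This fit had no term for the first number. Bmp7 had -0.26 in males and -0.67 in females, Itga8 had -0.55 and -0.22, and Meox1 had 0.33 and -0.09 (adjusted p = 0.455 for each).

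Other genes of these pathways, from 8 lists that hold no member, were read from the same fit. Of 143 genes tested, 9 rose and 14 fell, which is 16.1% beside 17.7% of all genes, with a median of -0.01. Of the 23, 16 kept their call with each array left out in turn. With no scaling between arrays only Sox9 passed.

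Among other genes of the cap mesenchyme, 2 of 18 rose and none fell (median 0.07). Spock2, a proteoglycan gene, rose by 0.63 on the log2 scale (adjusted p = 0.0162) and Kif26b, a kinesin gene needed for the mesenchyme to adhere around the bud, by 0.37 (adjusted p = 0.0277). Kif26b lost its call without wild type 1-1 or 4-1 or knockout 2-3 or 2-4 (adjusted p up to 0.0543). Wt1, which is also in the podocyte list, Fgf9 and Mycn had differences of -0.06, 0.03 and 0.02 (adjusted p = 0.752, 0.92 and 0.959).

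Among genes of the ureteric bud, 3 of 20 rose and 3 fell (median -0.03). The 3 that rose were the keratin genes Krt18 (0.57, adjusted p = 7.63e-07) and Krt8 (0.52, adjusted p = 5.98e-05) and the transcription factor gene Sox9 (1.23, adjusted p = 0.00349, with 1 wild-type array at the floor), and all 3 are also in the list of injured tubule. Those that fell were Wnt11, the bud tip ligand gene (-0.34, adjusted p = 0.0199), and Fras1 (-0.37, adjusted p = 0.0154) and Frem2 (-0.33, adjusted p = 0.0423), which encode proteins of the basement membrane complex around the bud. Frem2 lost its call without any 1 of 10 arrays (wild type 1-1, 2-2, 3-1, 4-1 or 4-2, knockout 2-4, 3-4, 4-3, 4-4 or 5-2; adjusted p up to 0.0944).

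Among genes of the nascent nephron, 1 of 16 rose and 3 fell (median -0.03). Hnf4a, the proximal tubule's transcription factor, fell (-0.49, adjusted p = 2.78e-06) with no overlap between the groups, as did Cdh16, the kidney-specific cadherin (-0.15, adjusted p = 0.00883). Ccnd1, cyclin D1, fell (-0.36, adjusted p = 0.042) and the transcription factor gene Sox11 rose (0.41, adjusted p = 0.0181). Without wild type 1-1 the adjusted p of Sox11 was 0.0502. Ccnd1 lost its call without any 1 of 10 arrays (wild type 1-1, 2-1, 2-2, 3-1, 4-1 or 5-1, knockout 2-3, 3-3, 4-4 or 5-2; adjusted p up to 0.0878). Cdh16 also lost its call with median centring (adjusted p = 0.152).

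Of 15 stromal genes, Ntn1, the secreted guidance molecule netrin-1, fell (-0.39, adjusted p = 0.000299) with no overlap between groups, and none rose (median 0.06). Of 19 further Notch pathway genes, Heyl, a target of Notch in vessel walls, rose (0.38, adjusted p = 0.00277) and none fell (median -0.01). Rbpj (-0.01, adjusted p = 0.939) and Notch1 (0.22, adjusted p = 0.238) did not pass.

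Of 21 further Wnt pathway genes 1 rose and 2 fell (median -0.06). The receptor gene Fzd4 rose (0.59, adjusted p = 0.000137), although the mean over its probe sets gave 0.07 (adjusted p = 0.521). Apcdd1, an inhibitor and target of the pathway, fell (-0.42, adjusted p = 0.00265), as did the ligand gene Wnt5a (-0.30, adjusted p = 0.00489). The common target Axin2 had a difference of -0.23 (adjusted p = 0.125).

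Of 17 further genes of BMP signalling 2 fell and none rose (median -0.03). Id1, a direct target of BMP-activated SMADs, fell (-0.40, adjusted p = 0.000463) with no overlap between groups, and Smad6, an inhibitor that the pathway induces, also fell (-0.23, adjusted p = 0.0268). The Smad6 call was lost without wild type 2-2 or 4-1 or knockout 4-4 (adjusted p up to 0.0667) and with median centring (adjusted p = 0.0967). The related targets Id2, Id3 and Id4 had differences of -0.16, -0.14 and -0.11 (adjusted p = 0.231, 0.166 and 0.209), and the receptor genes Bmpr1a and Bmpr2 of 0.01 and 0.04 (adjusted p = 0.931 and 0.787).

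Of 19 further imprinted and growth factor genes, 1 rose and 3 fell (median -0.01). Igf1, the postnatal growth factor, fell (-0.55, adjusted p = 0.00358) and Meg3, an imprinted noncoding RNA gene, rose (0.45, adjusted p = 0.00578). Peg3 (-0.22, adjusted p = 0.021) and Cdkn1c (-0.29, adjusted p = 0.0405), an imprinted cell cycle inhibitor gene that is also a podocyte marker, fell. Peg3 lost its call without wild type 3-1 or 4-2 (adjusted p up to 0.0552). Cdkn1c lost its call without any 1 of 9 arrays (wild type 1-1, 2-1, 3-1, 4-1, 4-2 or 5-1, knockout 2-3, 3-3 or 4-4; adjusted p up to 0.083) and with median centring (adjusted p = 0.0689). The receptor genes Igf1r and Igf2r had differences of -0.01 and 0.00 (adjusted p = 0.97 and 0.998).

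**Figure D5:**
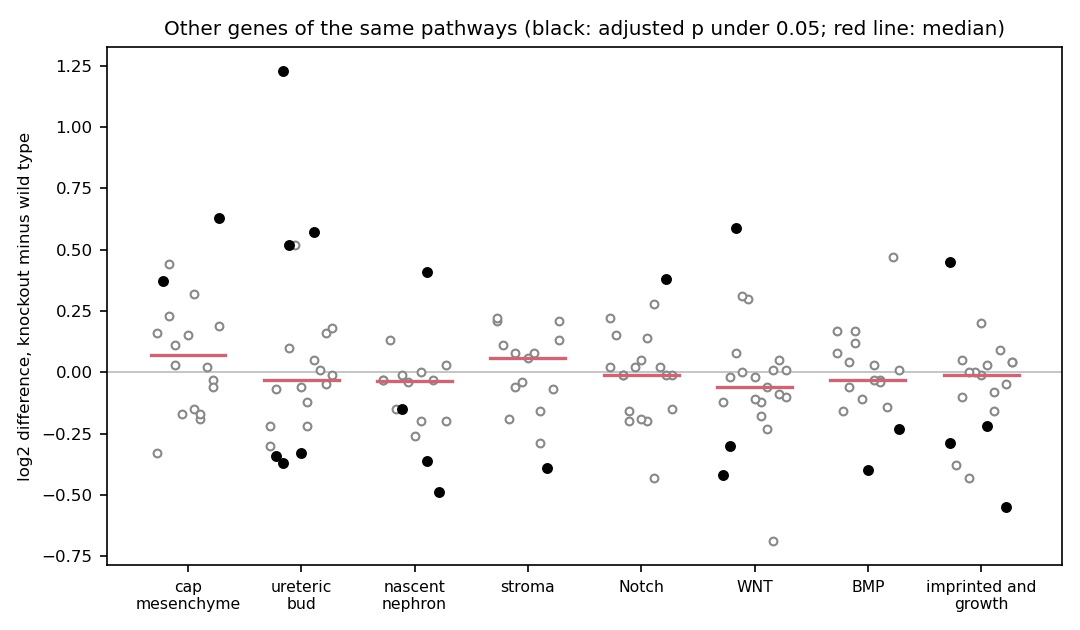
Knockout minus wild-type difference in log2 signal (y axis) of the tested genes in each of the 8 lists of other pathway genes (x axis), 1 point per gene, with black points at an adjusted p under 0.05 in limma and a red line at the median of each list. The list medians lie between -0.06 and 0.07, and 9 genes above and 14 below 0 passed the test.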

How the data were processed

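Whole-kidney RNA of 16 pups was measured, with each kidney labelled separately per the labels' protocols. The authors deposited 1 linear intensity per probe set and array, from GCOS 1.3 according to the submitters' processing notes; whether arrays had been scaled to each other is not stated in the sources used.

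All 45101 probe sets were quantile normalized, raised to a floor at the 20th percentile (a signal of 6.89) and put on the log2 scale, which understates the change of dim genes. Names came from the platform annotation: 34958 probe sets name 1 gene, 932 several, and 9211 are not listed. A gene was read from its brightest probe set by mean log2 signal, so levels are not compared between genes. Genotypes were compared with limma 3.58.1 in R 4.3.3 (eBayes with a variance trend) and Benjamini-Hochberg adjustment over 12500 genes. Values given with ± are SD over arrays unless named SE.

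The members and lists were chosen with earlier results of these data known. All 39 members are in scope; from each pathway list, changed genes up to 6 by smallest p are named. Other genes with values were named after these were seen. Alternatives were other scalings, floors, filters, probe set rules, variance models, a term for sex or a block for the first sample number, each sex alone and each array left out. The fit was tested on simulated data with independent noise. Most of the called members had differences smaller than any simulated, so that test does not cover them.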

Additional observations from a re-analysis of the deposited data

Results flagged for a closer look

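Among the 54 groups formed by the 27 members and both genotypes, 4 had an array whose gap to the nearest other exceeded the Dixon limit for the group size. Chance alone flags about 1 in 20 groups. Cited1 in knockout 4-3 had a log2 signal of 3.48, against 4.76 for the next lowest knockout. Lhx1 in wild type 1-1 was at 6.00, against 6.51 for the next lowest wild type. Bmp4 was at 8.67 in wild type 1-1, against 8.46 for the next highest, and at 8.42 in knockout 5-2, against 8.31. The Bmp4 difference passed the test without knockout 5-2 and did not pass without wild type 1-1.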

How the results depend on the processing

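The count of genes that differed between genotypes was 2215, and 5 members were among them. On the deposited scaling 438 genes and 0 members passed in limma, with 2 members at an unadjusted p under 0.05. In males alone 1397 genes and 2 members (Jag1 and Itga8) passed, and in females alone 688 genes and 1 member (Bmp7). Alternatives chosen after seeing the data gave 1347 genes and 1 member (Bmp7) on the 8 brighter arrays, 1160 genes and 1 member (Itga8) on the 8 dimmer arrays, and 2 members (Itga8 and Bmp7) without wild-type arrays 2-1 and 2-2. Fewer arrays entered these fits. With each array left out in turn, 2 to 5 members passed, and the fewest passed without wild type 2-2. Wnt4 lost its call with the mean of its probe sets (adjusted p = 0.0829) and with no filter on dim genes (adjusted p = 0.0601), as did Jag1 with no filter (adjusted p = 0.0584). The cause was not tested. Over single genes, 2504 alternatives gave the outcome of the main fit, whether called or not called. Of the rest, 197 lost a call, 18 gained one and none turned a called direction. Of 36 alternatives for each gene, Itga8 and Bmp7 kept their call in 33, Jag1 in 24, Bmp4 in 22 and Wnt4 in 20.

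With the first sample number as a replicate block, 2655 genes (21.2%) and 6 members passed, the sixth being Igf2 (-0.34, adjusted p = 0.00352). Animals of the same number and opposite genotype correlated in their deviations at 0.04, 0.13, -0.01, 0.16 and 0.32 for numbers 1 to 5. With values this low for some numbers, they were not taken to pair the samples. The 5 numbers may still mark the 5 breeding pairs, which the labels do not say and which was not tested. Not every number correlated best with itself: for numbers 1, 3 and 4 the correlation with another number reached 0.13, 0.15 and 0.26. Signal near background limits what can be read for the 10 dim members.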

Other observations

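The first number in the array labels was tested beside genotype after the data were seen, with a moderated F test in limma. It passed for 46 of 12500 genes (0.368%), and Igf2 was the 1 member among them (adjusted p = 0.00558). The number held 0.883 of the residual variance of Igf2, against a median of 0.395 over members and 0.376 over all genes. Under numbers 1 to 5 the knockout mean of Igf2 lay below the wild-type mean by differences of -0.61, -0.28, -0.26, -0.28 and -0.45. Gfra1, the GDNF co-receptor gene, had a share of 0.822 and did not pass (adjusted p = 0.0806).

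With no filter on dim genes, Osr1 had a difference of -1.09 (limma adjusted p = 0.00879) and the other 9 dim members had adjusted p of 0.449 or more. Its 5 knockout arrays at the floor make that difference depend on the floor.

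Each member has a lowest and a highest array in each genotype, so some arrays hold several extremes by chance alone. Those with the most are given here, and whether their counts exceed chance was not tested. Wild type 1-1 was the lowest of its group for 8 of 27 members (Wnt4, Lhx1, Pax8, Gfra1, Cdh6, Hoxd11, Igf2 and Lef1), and knockout 3-4 likewise for 8 (Sall1, Lhx1, Gfra1, Jag1, Notch2, Itga8, Hoxa11 and Hoxd11). Knockout 1-2 was the lowest for 7 (Wnt7b, Wnt9b, Hes1, Bmp7, Bmp4, Igf2 and Lef1), and wild type 2-2 was the highest for 7 (Pax8, Gfra1, Hes1, Notch2, Foxd1, Cdh6 and Irx1).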
